A study of Homo sapiens with 47 samples.

Results

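The replication-dependent histone genes supply the histones that package newly copied DNA. They were taken here as the RefSeq protein-coding genes of hg38 (GRCh38.p14) with a symbol of the H1-1 to H1-6, H2AC, H2BC, H3C or H4C series. The rule found 69 genes of 20037 protein-coding genes on chromosomes 1 to 22, X and Y. They comprised 6 linker histone H1 genes, 17 H2A, 18 H2B, 13 H3 and 15 H4 genes. Of these, 55 lie on chromosome 6, 13 on chromosome 1 and 1, H4C16, on chromosome 12. The annotated spans of 61 of them measure 386 to 797 nt with a median of 487 nt. The other 8 are annotated with spans of 2224 to 29682 nt (H2BC4, H2BC5, H2BC12, H2BC18, H2BC21, H3C4, H3C6 and H4C15), so that a site in them may lie far from the histone coding sequence.

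Most of these genes have no intron, and their transcripts accumulate while DNA is being replicated. Their mRNAs end in a conserved stem-loop in place of a poly(A) tail. The stem-loop is bound by SLBP, and the U7 small nuclear ribonucleoprotein guides the cut that makes the 3′ end. PTBP1 is a splicing regulator that binds pyrimidine-rich RNA, and RBFOX2 is a splicing regulator that binds the sequence GCATG (written as DNA). Cas13 proteins are RNA-guided RNA nucleases, and the dead forms used here bind without cutting.

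The sites came from uSpyCLIP-seq of stable lines of Lenti-X 293T, a lentivirus packaging line derived from human embryonic kidney, that expressed the protein studied. The protein is crosslinked to RNA with UV-C light, the RNA is fragmented with RNase I, and the complexes are captured through the bond between SpyTag and SpyCatcher. The groups set side by side here are dPspCas13b with EZH2g1, with EZH2g2 and alone, dRfxCas13d with EZH2g1, with EZH2g2 and alone (3 UV-crosslinked libraries each), RBFOX2 from 10000000 cells and PTBP1 from 1000, 10000, 100000 and 10000000 cells (2 libraries each), and SpyCatcher 2.0 and SpyCatcher 1.0 at 20 and 40 µg (1 library each, with the captured protein not named in the labels). Not analysed here were the NonUV libraries of either Cas13 protein and the gNT libraries of dRfxCas13d. The study asks where the Cas13 proteins bind RNA with and without a guide, and the lists of the splicing regulators show where unrelated proteins captured the same way lay.

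Each group has 1 list of positions with strands and no score or count, so there is no spread between replicates, the depth is unknown and no test between groups was made. Intervals given in parentheses are at the 95% level (exact binomial, Clopper-Pearson) and hold counting error alone. They take the sites of a list as independent, although several can lie in 1 gene. The limit given for a list with no site is 3 sites of the list. Lists held between 59 and 4701 sites for Cas13 and between 16507 and 964422 clusters for the splicing regulators and the SpyCatcher libraries. The sites of dPspCas13b alone had a median width of 124 nt and those of dRfxCas13d alone 172 nt, against a median of 6 nt for the clusters of RBFOX2 and of PTBP1 from 10000000 cells. A site belonged to a gene when its midpoint lay in the span on the gene's strand. Spans are not divided into exons, introns or untranslated regions here. For 5 genes (H4C1, H4C3, H2AC12, H3C11 and H3C12) no strand was given, and sites on either strand were counted. Other genes without a strand were counted the same way in the shares of genes given for comparison. A strand was known for 15843 of the 20037 protein-coding genes, so a larger part of them than of the histone genes was counted on either strand. H2AC7 lies wholly within the span of H3C4 on the same strand, so the same sites count for both genes and once in a share of a list.

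Several stretches are shown first, as examples chosen from the places in histone genes where lists of different proteins met or where a site could be set against the ends of the gene. They are not all such places. All are from RefSeq on GRCh38.p14, read 5′ to 3′ along the gene's strand. In H3C2 (minus strand, chr6:26032061-26032090) the sites of dPspCas13b alone and dRfxCas13d alone both covered the stretch, and the capitals mark the PTBP1 cluster from 10000000 cells. In H4C2 (minus strand, chr6:26027255-26027284) a site of dPspCas13b alone covered it, with capitals as for H3C2. In H2BC18 (minus strand, chr1:149812340-149812369) and H2AC7 (minus strand, chr6:26199244-26199273) the capitals mark an RBFOX2 cluster. The H2BC18 stretch was met by 6 of the 15 lists, and the H2AC7 stretch by 3.
H3C2: tctgcaggcaagCTTTTCtgtggttttgcc
H4C2: cgtacctggttttTGTTGtcagctggttag
H2BC18: gttcggattacttCTTTaagtctcttttct
H2AC7: attgcttaacatcGTTTTTaagaattcaaa

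H4C16, the histone H4 gene on chromosome 12, was the gene whose end could be read in the same source. A site of dRfxCas13d alone (minus strand, chr12:14770688-14770858) covered the last 86 nt of the coding sequence, the 3′ stem-loop and 36 nt after it. The coding end (chr12:14770773-14770858) is shown with the stop codon in capitals, and the stretch around the stem-loop (chr12:14770717-14770746) with the stem-loop in capitals. The stop codon and the stem-loop are 33 nt apart, and the stem-loop ends 4 nt before the annotated gene end.
H4C16 coding end: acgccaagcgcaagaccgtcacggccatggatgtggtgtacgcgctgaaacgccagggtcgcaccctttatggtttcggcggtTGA
H4C16 stem-loop: tccaaaaGGCCCTTTTCAGGGCCcccaaac

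Both Cas13 proteins without a guide had sites in histone genes. dPspCas13b alone had 18 sites in 11 histone genes, which is 15.9% of the 69, beside 10.4% of all protein-coding genes. dRfxCas13d alone had 13 sites in 11 histone genes, again 15.9%, beside 9.76% of all protein-coding genes. Since H3C4 and H2AC7 hold the same pair of dRfxCas13d sites, these are 10 separate loci. Counting only sites wholly inside the span left 6 histone genes for dPspCas13b alone and 7 for dRfxCas13d alone. Whether the histone genes differ from all genes in these shares was not tested. Among the 61 histone genes under 1000 nt, 10 (16.4%) held a site of dPspCas13b alone and 10 (16.4%) a site of dRfxCas13d alone. Among genes no longer than the longest histone gene, 8.09% held a dPspCas13b site and 7.91% a dRfxCas13d site. Of the 466 other protein-coding genes under 1000 nt, 2 (0.429%) held a site of dPspCas13b alone and 1 (0.215%) a site of dRfxCas13d alone. Histone genes were thus 10 of the 12 genes under 1000 nt with a dPspCas13b site, and 10 of the 11 with a dRfxCas13d site. How strongly each of these genes is transcribed in the cells was not measured, and its part in these counts was not tested.

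**Figure D1:**
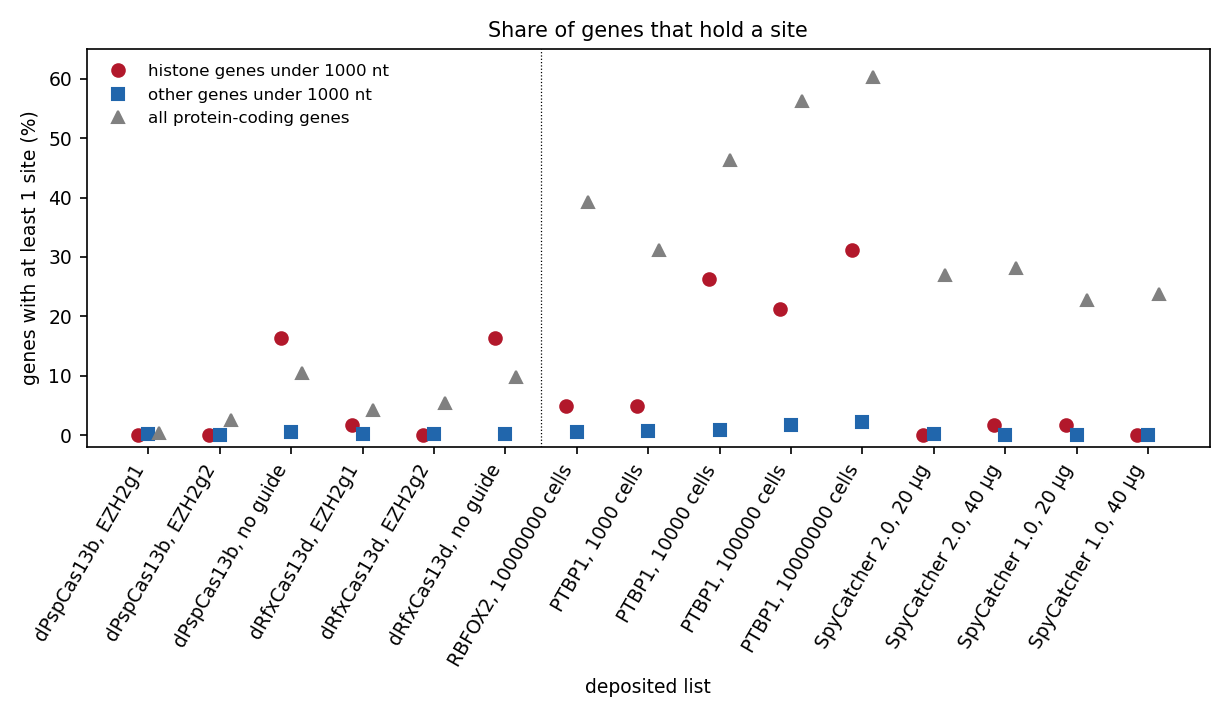
Percent of genes with at least 1 site in each of the 15 lists, for histone genes under 1000 nt (circles, 61 genes), other protein-coding genes under 1000 nt (squares, 466 genes) and all protein-coding genes (triangles, 20037 genes). In the lists of dPspCas13b and dRfxCas13d without a guide the histone genes (16.4% each) lie above all protein-coding genes (10.4% and 9.76%), while in the RBFOX2 and PTBP1 lists they lie below them.

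For the splicing regulators the share of histone genes lay below that of all genes. RBFOX2 had clusters in 7 histone genes (10.1%), beside 39.2% of all protein-coding genes. PTBP1 from 10000000 cells had clusters in 27 histone genes (39.1%), beside 60.3% of all protein-coding genes. Among genes no longer than the longest histone gene, 25% held an RBFOX2 cluster and 46.1% a PTBP1 cluster. Among genes under 1000 nt, 19 histone genes (31.1%) held a PTBP1 cluster, beside 10 of the 466 others (2.15%), and 3 histone genes (4.92%) held an RBFOX2 cluster, beside 2 of the others (0.429%). In all 4 lists, then, a larger share of short histone genes than of other short genes held a site.

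As a share of the list, histone genes took more of the lists of the Cas13 proteins alone than of the RBFOX2 and PTBP1 lists. They held 0.383% of the sites of dPspCas13b alone (interval 0.227 to 0.604) and 0.463% of those of dRfxCas13d alone (0.247 to 0.790). They held 0.00595% of RBFOX2 clusters (0.00239 to 0.0123) and 0.0160% of PTBP1 clusters from 10000000 cells (0.0135 to 0.0187). The intervals of both Cas13 proteins alone did not overlap those of the splicing regulators. Sites in 1 gene are not independent, so these intervals are likely too narrow. H4C15 held 41 of the 154 PTBP1 clusters, and H4C2 held 4 of the 18 sites of dPspCas13b alone. The share of dPspCas13b alone was 64.3 times that of RBFOX2 and 24.0 times that of PTBP1, and the share of dRfxCas13d alone was 77.8 and 29.0 times theirs. These ratios set wide sites beside narrow clusters, of which many more can lie in 1 gene. The PTBP1 list had 964422 clusters and reached 12073 protein-coding genes. The list of dPspCas13b alone had 4701 sites and reached 2085. Shares of genes, in which a gene counts once whatever its number of sites, were also compared. Histone genes were 0.528% of the genes with a site of dPspCas13b alone (0.264 to 0.942) and 0.563% for dRfxCas13d alone (0.281 to 1.00). They were 0.0892% of the genes with an RBFOX2 cluster (0.0359 to 0.184) and 0.224% for PTBP1 from 10000000 cells (0.147 to 0.325). On that measure the Cas13 intervals lay above that of RBFOX2 and overlapped that of PTBP1.

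**Figure D2:**
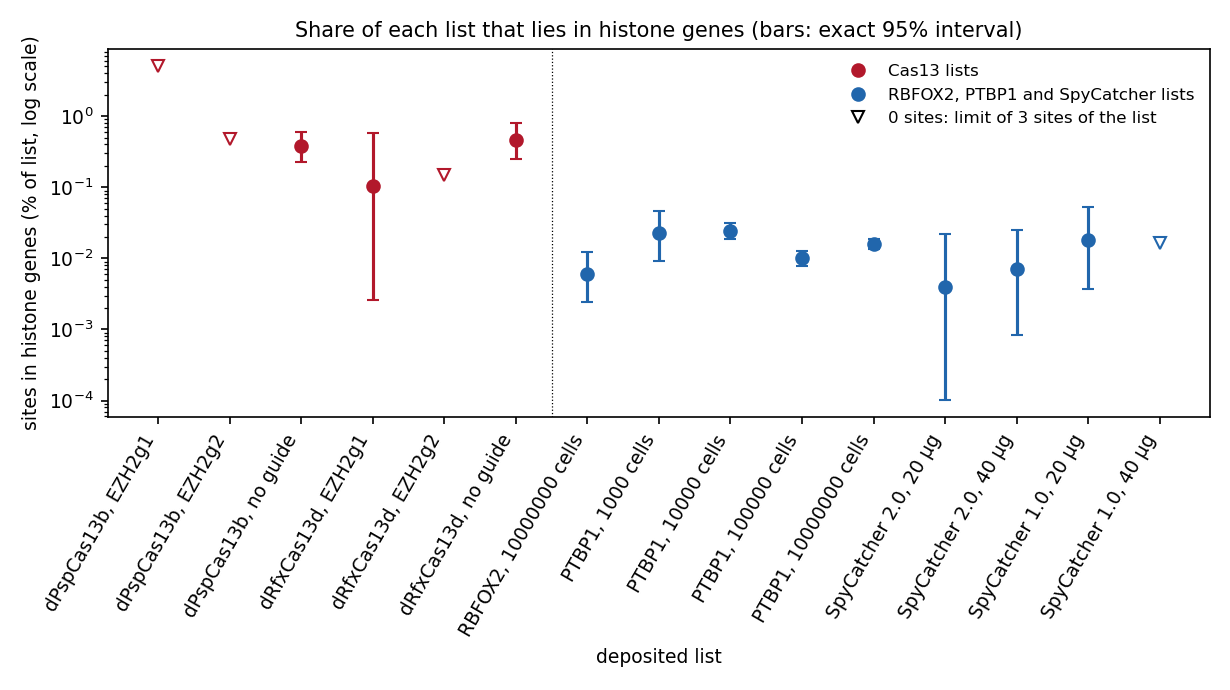
Sites in histone genes as a percent of each list (log scale); points with exact 95% intervals, and open triangles for lists with none, at the limit of 3 sites. The 2 Cas13 lists without a guide sit at 0.383% and 0.463%, and the RBFOX2 and PTBP1 lists between 0.00595% and 0.0242%.

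In the lists with a guide that are described here, 1 site in all lay in a histone gene. The dPspCas13b list with EZH2g1 had 0 of its 59 sites in them, which allows a share of the list of up to 5.08%. By gene it reached 0 of the 69 histone genes, beside 0.274% of all protein-coding genes with a site. The dPspCas13b list with EZH2g2 had 0 of 625 sites, which allows a share of the list of up to 0.480%. It reached 0 of the 69 histone genes, beside 2.58% of all genes. Both limits lie above the 0.383% found for dPspCas13b alone, so a difference was not detectable at this number of sites. The dRfxCas13d list with EZH2g1 had 1 of 966 sites in them, a share of the list of 0.104% (0.00262 to 0.575). By gene this was 1 of 69 (1.45%), beside 4.19% of all genes. That site, 166 nt wide, covered the 5′ end of H2BC7, a histone H2B gene with no site of either protein alone. The dRfxCas13d list with EZH2g2 had 0 of 1994 sites, which allows up to 0.150% of the list and lies below the interval of dRfxCas13d alone (from 0.247%). It reached 0 of the 69 histone genes, beside 5.45% of all genes. Whether sites of the lists without a guide were taken out of the lists with a guide is not given in the sources used here.

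By class, the H4 genes led the dPspCas13b sites and the H2A and H4 genes those of dRfxCas13d. Of the 15 H4 genes, 6 held 10 of the 18 sites of dPspCas13b alone, and 4 held a site of dRfxCas13d alone. Of the 13 H3 genes, 2 held a site of each protein. Of the 17 H2A genes, 1 held a dPspCas13b site and 4 a dRfxCas13d site. Of the 18 H2B genes, 2 held a dPspCas13b site and 0 a dRfxCas13d site. Of the 6 H1 genes, 0 held a dPspCas13b site and 1 a dRfxCas13d site. PTBP1 from 10000000 cells had clusters in 9 H2B, 7 H4, 6 H2A, 4 H3 and 1 H1 genes. These are counts of few genes, with no test between classes. By strand, dPspCas13b alone had sites in 7 of the 36 minus-strand and 2 of the 28 plus-strand histone genes, dRfxCas13d alone in 9 and 2, and PTBP1 from 10000000 cells in 17 and 9. These counts leave out the genes without a strand, and H3C4 and H2AC7 share their sites. Of the sites in histone genes, 15 of 18, 11 of 13 and 119 of 154 in these lists lay on the minus strand. Between 53.3% and 54.2% of the sites of each whole list did. A difference between strands was not tested.

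**Figure D3:**
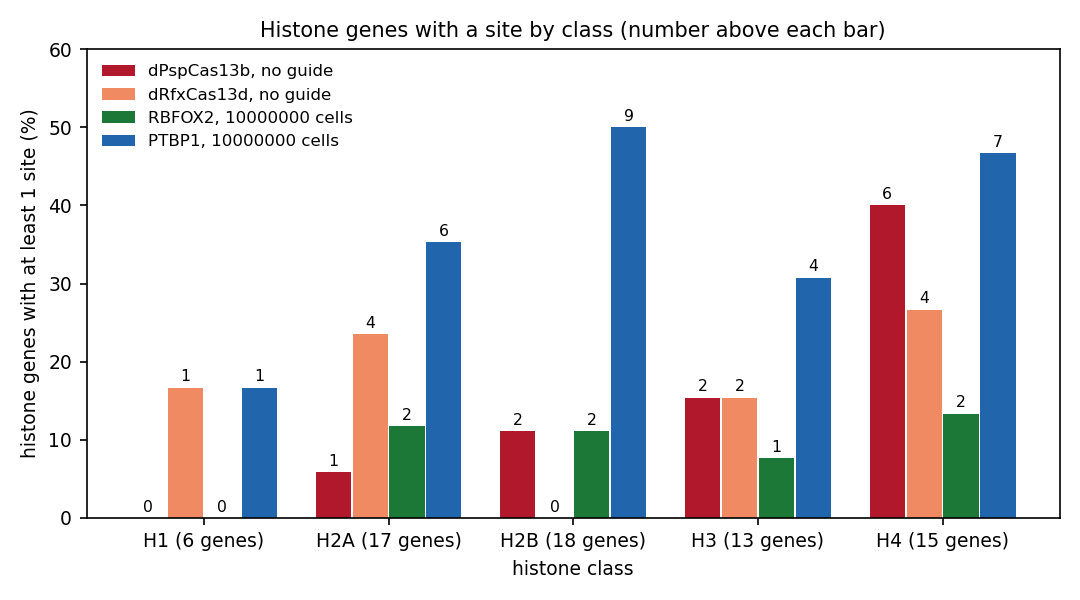
Percent of the genes of each histone class with at least 1 site in 4 lists; the number of genes stands above each bar. The dPspCas13b bar is highest in H4 (6 of 15 genes), and dRfxCas13d has no bar in H2B (0 of 18).

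Among the H4 genes, which encode the partner of H3 in the nucleosome core, H4C2 stood out. Its 388 nt held 4 sites of dPspCas13b alone, 112 to 158 nt wide, of which 1 covered the 5′ end, 1 the 3′ end and 2 overlapped each other between them. It held 1 site of dRfxCas13d alone, 182 nt wide, which overlapped 3 of the 4. It held 0 RBFOX2 clusters and 2, 4, 8 and 6 PTBP1 clusters from 1000, 10000, 100000 and 10000000 cells. H4C4 held 2 sites of dPspCas13b alone and 2 of dRfxCas13d alone, with 0 RBFOX2 clusters and 0, 1, 1 and 2 PTBP1 clusters over the 4 inputs. H4C5 held 1 site of each Cas13 protein at its 3′ end, with 0 RBFOX2 clusters and 0, 0, 0 and 1 PTBP1 clusters. H4C8 held 1 site of dPspCas13b alone, 2 RBFOX2 clusters and 1, 8, 7 and 10 PTBP1 clusters, the most RBFOX2 clusters of any histone gene. H4C1 and H4C11 held 1 site of dPspCas13b alone each, and H4C16 the 1 dRfxCas13d site shown above. H4C1 was the 1 gene with a site of either protein alone and no PTBP1 cluster at 10000000 cells, and it had 1 at 10000 cells.

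Among the H3 genes, H3C2 held 3 sites of dPspCas13b alone and 1 of dRfxCas13d alone, 0 RBFOX2 clusters, and 0, 2, 3 and 4 PTBP1 clusters over the 4 inputs. Sites of both Cas13 proteins covered its 5′ end, over the sequence given above. H3C12 held 1 site of dPspCas13b alone, which lay inside the gene. H3C4 and H2AC7 shared 2 sites of dRfxCas13d alone, 1 RBFOX2 cluster and, at 10000000 cells, 6 PTBP1 clusters, all inside the 510 nt of H2AC7. The histone genes with sites of both proteins alone were thus H3C2, H4C2, H4C4 and H4C5, and 18 had a site of at least 1 of them.

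Among the genes for H2A and H2B, which pair with each other in the core, H2AC4 held 2 overlapping sites of dRfxCas13d alone and no site of dPspCas13b. One of them (minus strand, chr6:26033324-26033516) is on line 1 of the deposited list, whose order has no stated basis. H2AC11, with a span of 493 nt, held a dRfxCas13d site 487 nt wide. That site began 54 nt before the annotated start and stopped short of the 3′ end. H2AC21 held 1 dRfxCas13d site and H2AC17 1 dPspCas13b site. H2BC11 held 2 overlapping sites of dPspCas13b alone, and H2BC4 held 1. H1-2, the 1 linker histone gene with a site in any list, held 1 dRfxCas13d site and 0, 1, 2 and 8 PTBP1 clusters over the 4 inputs. No site of the 15 lists lay in the other 5 linker genes or in 39 of the 69 genes in all.

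More histone genes held a PTBP1 cluster at 10000 than at 100000 cells. The 1000-cell list had clusters in 6 histone genes (8.70%), beside 31.1% of all protein-coding genes. The 10000-cell list had them in 24 (34.8%, beside 46.3%), the 100000-cell list in 21 (30.4%, beside 56.2%) and the 10000000-cell list in 27. Of the 61 histone genes under 1000 nt, the 3 lower inputs reached 3 (4.92%), 16 (26.2%) and 13 (21.3%), beside 0.644%, 0.858% and 1.72% of other short genes. H4C2, H4C8, H4C15, H2BC4, H2BC11 and H2BC21 had a cluster at every input. The share of the list was 0.0226% (0.00911 to 0.0467), 0.0242% (0.0185 to 0.0311), 0.0100% (0.00790 to 0.0125) and 0.0160% from the lowest to the highest input. The intervals of the 10000-cell and the 100000-cell list did not overlap. They take clusters in 1 gene as independent, while H4C15 held 8 of the 60 clusters at 10000 cells and 27 of the 77 at 100000 cells.

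The histone genes with most PTBP1 clusters at 10000000 cells were partly those with long spans. H4C15 (16753 nt) had 41 clusters, H2BC5 (13229 nt) 14, H4C8 (409 nt) 10, H1-2 (731 nt) 8 and H2BC18 (29682 nt) 8. H2BC21 and H3C6 had 7 each, and H2AC7, H3C4, H4C2, H2BC4 and H2BC11 had 6 each. All 8 genes with long spans held a cluster, and they held 91 of the 160 counted by gene. Of these 91, 53 lay more than 1000 nt from the annotated start, among them all 41 of H4C15 and all 7 of H3C6. Per kb of span, genes under 1000 nt held 2.26 clusters, the 8 long ones 1.05 and all protein-coding genes 0.710. Of the 27 genes, 9 had no site in the Cas13 lists described here: H2AC6, H2BC5, H2BC12, H2BC15, H2BC17, H2BC18, H2BC21, H3C6 and H4C15. How reads that match several copies were treated is not given in the sources used here. H4C15 and H4C14 are identical over all 300 nt around their starts, and H4C11 and H4C12 over 295 of 300, while H4C14 and H4C12 held no site in any list. These windows hold 250 nt before the start and 50 nt after it. The clusters of H4C15 lay more than 1000 nt from its start, and those of H4C11 had midpoints 330 and 354 nt from its start. They lay outside the stretches compared, and the copies were not compared where the clusters lay.

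RBFOX2 clusters were few. H4C8 had 2, and H2AC13, H2BC5, H2BC18 and H4C15 had 1 each, besides the 1 shared by H2AC7 and H3C4. They were 3 to 6 nt wide. H2AC7, H3C4 and H4C8 were the 3 of these 7 genes that also held a site of a Cas13 protein alone. H2AC13 was the 1 with no PTBP1 cluster at 10000000 cells. In the SpyCatcher 2.0 lists, 20 µg gave 1 histone gene (H2BC18, beside 27% of all genes with a cluster) and 40 µg gave 2 (H2BC17 and H2BC18, beside 28.2%). In the SpyCatcher 1.0 lists, 20 µg gave 3 (H2AC17, H2BC18 and H4C15, beside 22.8%) and 40 µg gave 0 histone genes, beside 23.7%. That 40 µg list had 0 of 18228 clusters in histone genes, which allows a share of the list of up to 0.0165%.

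All 11 histone genes with a site of dRfxCas13d alone and 10 of the 11 with a site of dPspCas13b alone held a PTBP1 cluster at 10000000 cells. Over all genes the shares were 97.5% of 1955 genes and 98.5% of 2085 genes, so the shares in histone genes lay near those of genes at large. At the level of sites, 12 of the 18 dPspCas13b sites in histone genes overlapped a PTBP1 cluster by at least 1 nt (66.7%, interval 41.0 to 86.7), beside 50.6% of that whole list. For dRfxCas13d it was 7 of 13 (53.8%, interval 25.1 to 80.8), beside 36.6%. Both intervals hold the value of the whole list. Of the dPspCas13b sites in histone genes, 7 of 18 overlapped a dRfxCas13d site (38.9%, interval 17.3 to 64.3), beside 11.7% of the whole list. In H4C2, 3 of these 7 overlapped the same dRfxCas13d site, and the interval takes them as independent. Of the dRfxCas13d sites, 4 of 13 overlapped a dPspCas13b site (30.8%, interval 9.09 to 61.4), beside 14.1%. RBFOX2 clusters lay under 1 of the 18 dPspCas13b sites, in H4C8 (5.56%, interval 0.141 to 27.3), beside 14.9% of the whole list. They lay under 0 of the 13 dRfxCas13d sites (interval up to 24.7%), beside 8.33%. Both intervals hold the value of the whole list.

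The place of the sites along the gene is given as counts, with no test between lists. Spans of the genes under 1000 nt were cut into 3 equal lengths from the 5′ to the 3′ end. The 17 dPspCas13b sites in them fell 3, 5 and 9 to these lengths, and the 13 dRfxCas13d sites 3, 6 and 4. The 4 RBFOX2 clusters fell 1, 0 and 3, and the 69 PTBP1 clusters from 10000000 cells 33, 8 and 28. The PTBP1 lists varied among themselves, with 10, 3 and 21 of 34 clusters at 10000 cells and 15, 5 and 12 of 32 at 100000 cells. Within 60 nt of the 3′ end lay 17 of the 34 at 10000 cells and 6 of the 32 at 100000 cells. Of the dPspCas13b sites, 7 covered the annotated 3′ end and reached 19 to 26 nt past it, in H2AC17, H3C2, H4C1, H4C2, H4C5, H4C8 and H4C11. Another 3 covered the 5′ end, in H3C2, H4C2 and H4C4, and reached 26 to 46 nt before it. Of the dRfxCas13d sites, 3 covered the 3′ end by 27 to 33 nt, in H4C4, H4C5 and H4C16, and 2 covered the 5′ end, in H3C2 and H2AC11. None of the 69 PTBP1 clusters reached the 3′ end, while 18 lay within 60 nt of it and 22 within 50 nt of the 5′ end. Widths differ between the lists, and the wider Cas13 sites can cover an end that a narrow cluster near it does not.

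No site was found just past the 3′ ends of histone genes. In the 64 histone genes with a strand, 0 sites of the 15 lists had a midpoint in the 200 nt after the end. In the last 200 nt inside the end they held 8 sites of dPspCas13b alone, 5 of dRfxCas13d alone, 3 RBFOX2 clusters and 27 PTBP1 clusters from 10000000 cells. Over all 15843 protein-coding genes with a strand, the 200 nt after the end held 0 sites of dPspCas13b alone, against 231 inside. They held 0 of dRfxCas13d alone, against 92 inside, 24 RBFOX2 clusters, against 654 inside, and 316 PTBP1 clusters, against 6292 inside. The lists of both Cas13 proteins alone thus had no site there in any gene, histone or other. For PTBP1 the clusters past the end were 5.02% of those inside over all genes, and histone genes had 0 past the end and 27 inside. With so few clusters inside, the 0 does not tell histone genes from genes at large.

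The first transcribed nucleotides could be read for 64 of the 69 genes. PTBP1 clusters there were richer in pyrimidines than the bases around them. In 18 genes with a cluster from 10000000 cells in the first 50 nt, 69.7% of 277 cluster bases were C or T, beside 56.3% of the 623 other bases. The shares were 76.6% beside 58.2% at 100000 cells (11 genes) and 76.2% beside 60.5% at 10000 cells (9 genes). The 3 lists share genes, and neighbouring bases are not independent. Examples with the cluster in capitals are H2BC11 (minus strand, chr6:27132774-27132803), H2BC17 (plus strand, chr6:27893438-27893467), H1-2 (minus strand, chr6:26056425-26056454) and H2BC21 (minus strand, chr1:149886633-149886662), whose cluster overlapped one in each of the 4 PTBP1 lists.
H2BC11: ccctgctcacgCTGTTTTTCcttttcgttg
H2BC17: gagtGCTCTTTCACTCTCCTCCGCCAtgcc
H1-2: ttgtacccgaGTTTTTGATTctcaacatgt
H2BC21: cgcgtttgtACTGTGTCTTACCAtgcctga
The letters TCTT, a motif PTBP1 is known to bind, stood on the sense strand in the first 50 nt of 26 of 68 histone windows (38.2%), beside 5622 of all 35116 windows. GCATG stood in 4 of 68 (5.88%), beside 3.51%. The stem-loop consensus was found in 3 of the 35116 windows of 300 nt on either strand (0.00854%), 1 of them the H4C16 end shown above. A match is a description of letters and not of binding.

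The genes for histone variants, which are made outside replication mostly from polyadenylated mRNAs, held sites too. Of 17 such genes, 5 held 14 sites of dPspCas13b alone, with 6 in MACROH2A1, 5 in H2AZ1 and 1 each in H1-10, H2AZ2 and H3-3B. For dRfxCas13d alone, 3 held 8 sites, with 5 in H3-3B, which encodes H3.3, 2 in H2AZ1 and 1 in MACROH2A1. With EZH2g2, dRfxCas13d had 2 sites in MACROH2A1 and 1 in H2AJ. RBFOX2 had 69 clusters in 6 of the 17 and PTBP1 from 10000000 cells 357 in 9. The genes with a site were 29.4% of the 17 for dPspCas13b alone and 17.6% for dRfxCas13d alone, beside 10.4% and 9.76% of all protein-coding genes. They were 35.3% for RBFOX2 and 52.9% for PTBP1, near the 39.2% and 60.3% of all genes. Several of these genes are much longer than the replication-dependent ones, and counts were not set per length.

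A separate list held 24 genes whose products act in the transcription, 3′ end formation or decay of histone mRNA. Of these, 7 held 10 sites of dPspCas13b alone: 3 in SNRPB and 2 in SNRPE, which encode Sm proteins, and 1 each in SLBP, CPSF2, CPSF3, CRAMP1 and ZNF473. For dRfxCas13d alone, 4 held 6 sites, with 3 in SNRPB and 1 each in CPSF2, CSTF2T and ZNF473, which encodes a U7 snRNP-associated zinc finger protein. With EZH2g1, dRfxCas13d had 1 site each in SNRPG and UPF1, and with EZH2g2 1 each in SYMPK and UPF1. RBFOX2 had 275 clusters in 17 of the 24, and PTBP1 from 10000000 cells 1410 in 22. The genes with a site were 29.2% of the 24 for dPspCas13b alone and 16.7% for dRfxCas13d alone, beside 10.4% and 9.76% of all protein-coding genes. They were 70.8% for RBFOX2 and 91.7% for PTBP1, beside 39.2% and 60.3% of all genes. The 24 include RNU7-1, a small nuclear RNA gene, while the genes set beside them are all protein-coding. The shares in both lists were not set per length and not tested. The U7 small nuclear RNA gene RNU7-1 (chr12:6943816-6943878, 63 nt) held at least 1 cluster in all 9 lists of RBFOX2, PTBP1 and SpyCatcher, and 0 sites in the 6 Cas13 lists. It held 3 RBFOX2 clusters and 3, 2, 2 and 1 PTBP1 clusters over the 4 inputs, the last being 1 cluster of 55 nt. Its span is shorter than every Cas13 site in a histone gene (111 nt or wider), and whether width bears on its absence from those lists was not tested.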

How the data were processed

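The authors deposited 1 list of positions per group in BED format, recorded under the group's first library. Each list gives chromosome, start, end and strand on hg38, with neither a score nor a count or signal. Trim Galore 0.0.6 and STAR 2.7.9a are named, per the submitters' processing notes. The caller, its thresholds, duplicate removal, the treatment of reads with several matches and any pooling of libraries were not given in the sources used here. Of the 47 libraries in 20 groups, 15 lists are described, and lists of 2 further guided groups are not reported here.

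Positions were converted from the files' count from 0 to a count from 1. Gene spans came from RefSeq (GRCh38.p14, the assembly of hg38), and strands and sequences from the RefSeq windows of 300 nt around gene starts (250 nt before). A strand was found for 15843 of 20037 protein-coding genes and for 64 of 69 histone genes. H4C1 and H3C12, of unknown strand, were placed along the gene by the strand of their sites. Windows were matched by gene identifier. A gene counted as called when it held at least 1 site. The assignment code was tested on simulated data. Python 3.11.15, pandas 2.3.3, numpy 2.4.6, scipy 1.17.1 and matplotlib 3.10.9 were used.

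The genes and the lists of related genes were chosen with earlier results of these data known. Named are the histone genes with a site in a Cas13 list, the 10 with most PTBP1 clusters at 10000000 cells, the 5 with most RBFOX2 clusters and the related genes with a Cas13 site. Others named were chosen after their values were seen, as was the division at spans of 1000 nt. Alternatives counted sites by any overlap, by lying wholly inside, without strand, with spans extended by 200 nt, after merging, or only from 10 nt of width.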

Additional observations from a re-analysis of the deposited data

Results flagged for a closer look

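The PTBP1 list from 10000000 cells held 5 clusters on the strand opposite to histone genes, which the counts above do not use. They lay in H2AC15 with 3, H2BC5 with 1 and H4C15 with 1. The RBFOX2 list and the SpyCatcher 2.0 list at 40 µg held 1 such cluster each, in H2BC5. The lists of Cas13 described here held 0. No cause was tested.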

How the results depend on the processing

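Over 8 results and 52 alternatives, 44 values stayed and 8 moved, where a count stayed if within 1.5 times the reported count and a share of a list if within the interval of the reported share. Counting only sites wholly inside the span left 6 histone genes and 0.170% of the list for dPspCas13b alone and 7 genes for dRfxCas13d alone, since several sites cross a gene end. Keeping only clusters at least 10 nt wide left 0 genes and 0% of the list for RBFOX2 and raised the PTBP1 share at 10000000 cells to 0.0234%. Keeping only the 61 genes under 1000 nt, a division chosen after seeing the data, left 3 genes for RBFOX2 and a PTBP1 share of 0.00715%. Histone genes with a PTBP1 cluster at 10000000 cells numbered 18 to 28 over all alternatives. No paired analysis was possible because each group has 1 list and no list per replicate. For the same reason no replicate could be left out, and with no scores no stricter threshold could be set.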
